A study of Gallus gallus with 9 samples.

Results

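The hens compared here differ in whether the shell of the egg they hatched from was drilled. Liver RNA was sequenced from 9 Isa Brown laying hens (the layer strain of the labels) killed at 55 weeks of age, and 6 of these 9 came from drilled eggs. The 3 sham-manipulated and 3 albumen-deprived hens hatched from eggs that were disinfected with ethanol and iso-Betadine, drilled near the sharp end after day 1 of incubation and sealed with paraffin. In the albumen-deprived group 3 ml of albumen was also drawn from the egg and replaced by sterile saline, which the sham-manipulated eggs did not undergo. The 3 non-manipulated hens came from eggs that received no treatment. The drilled and undrilled hens were assigned by the treatment labels alone, all were females reared in pens of 1 room on the same kind of diet, and the pen of each hen is not given in the sources used here. Because disinfection, drilling and sealing always went together, their effects cannot be told apart, and "drilled" stands for all of them. Each library is 1 hen, so that p-values measure the spread between these hens.

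The liver of a laying hen makes most of the fat of the yolk. Under estrogen it synthesizes fatty acids and cholesterol and packs them into very low density lipoproteins that the ovary takes up, and it also handles heme, bile acids, growth hormone signals and blood-borne microbes. Opening the shell of an incubated egg may disturb the embryo even when nothing is removed. A sham-manipulated group kept beside a non-manipulated one allows for this. The question of the comparison was which liver genes stood at another level in the adult hens of both drilled groups than in the non-manipulated hens.

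The total count ran from 13720872 to 21747636 per hen (median 16278779), so that 1 CPM before scaling of library sizes stands for 13.7 to 21.7 counts. Normalized counts are given in CPM after TMM scaling of library sizes. Of 22082 loci, 12324 had more than 1 CPM before this scaling in at least 3 libraries and were tested. Of these, 1983 (16.1%) match no previously identified gene. The sum of the markers of hepatocytes lay between 129595 and 220961 CPM over the hens. ALB was the largest part of it, at 85968 to 135574 CPM. Other markers were far lower, such as HNF4A at 25.9 to 61.1 CPM and CPS1 at 3.27 to 20.1 CPM. None of the 16 tested was called between drilled and undrilled hens at the loosened cut-off given below. Of all loci only 0.17% were called, so 0 of 16 says little about these markers. The library of non-manipulated hen 1 stood apart in markers of macrophages, and that of sham-manipulated hen 1 in proliferation genes. Their values are given beside the results they touch.

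Few loci differed between hens from drilled and undrilled eggs. At a strict cut-off, which asks for a P-value below 0.001 and more than 1 unit on the log2 scale, 3 loci (0.0243% of those tested) were called, and all 3 were lower in the drilled hens. The loosened cut-off, a P-value below 0.005 and more than 1.5-fold, called 21 loci (0.17%), of which 5 were higher (0.0406%) and 16 lower (0.13%) in the drilled hens. With the GC-bin full quantile normalization the split was 10 higher and 18 lower. After Benjamini-Hochberg adjustment of edgeR's quasi-likelihood P-values over all 12324 loci, 1 locus (0.00811%) had an adjusted p under 0.05, and the next smallest adjusted p was 0.363. The number of loci with an unadjusted P-value under 0.05 was 415 (3.37%, 186 higher and 229 lower), where 616.2 would be listed if no locus differed. For a P-value under 0.005 these numbers were 30 and 61.62. Log2-fold changes lay below 0 for 48.8% and above 0 for 51.2% of the loci. Of the 21 called loci, 20 did not pass the adjustment.

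A locus was counted as moving alike when it was called at the loosened cut-off, when the sham-manipulated and the albumen-deprived group each lay past 1.5-fold in the same direction, and when no drilled hen fell within the range of the non-manipulated hens. These conditions held for 17 loci (0.138% of those tested), 5 of them higher (0.0406%) and 12 lower (0.0974%) in the drilled hens. Over all loci, with or without a call, 198 (1.61%) had no overlap between the 6 drilled and 3 undrilled hens, 108 of them higher (0.876%) and 90 lower (0.73%) in the drilled hens. If no locus differed, 2.38% would show no overlap, so a lack of overlap does not by itself set a locus apart. The comparisons of the sham-manipulated and the albumen-deprived hens with the non-manipulated hens share the same 3 non-manipulated hens, and both conditions on them chose these loci, so that the agreement of the drilled groups is a description. Some of the 17 loci, such as TLR7, HOXB5, XLOC_014460, XLOC_018621 and XLOC_021927, passed the filter on low counts only through the hens in which they were higher. Against the non-manipulated hens alone, 48 loci (0.389%) were called in the sham-manipulated and 30 (0.243%) in the albumen-deprived group at the loosened cut-off, and 8 (0.0649%) and 6 (0.0487%) at the strict one. At an unadjusted P-value of 0.05 they were 651 (5.28%) and 398 (3.23%), and 879 (7.13%) between the drilled groups. Previously identified genes made up 10 of the 17 loci, and 9 of them are described here: FLVCR2, ENSGALG00000026540, GPC3, SOCS2 and GNPAT, which were lower, and TLR7, HOXB5, LURAP1 and MAOB, which were higher in the drilled hens.

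**Figure D1:**
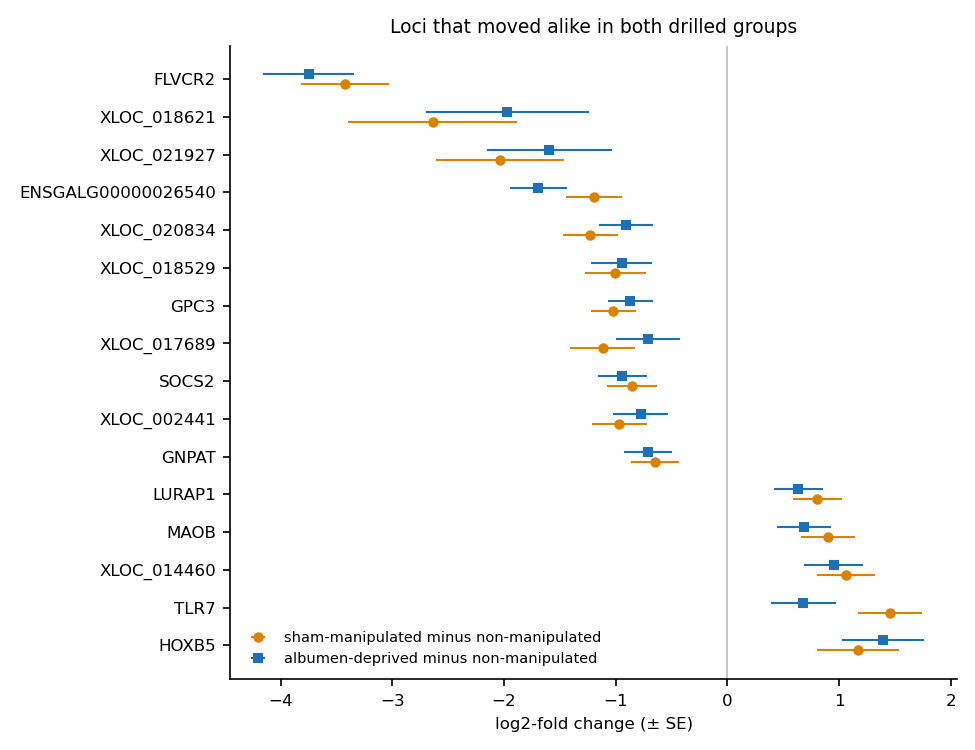
Log2-fold change of 16 of the 17 loci that moved alike (horizontal axis, with standard error bars) in the sham-manipulated (circles) and the albumen-deprived hens (squares) against the same non-manipulated hens. FLVCR2 lies lowest, at -3.42 and -3.75, followed by XLOC_018621 at -2.64 and -1.97. TLR7 has the widest gap between the drilled groups among the higher loci.

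FLVCR2, a member of a family of membrane transporters that have been described in mammals as carrying heme and choline, was the gene with the largest difference. Its normalized count was 20.7, 21.1 and 9.59 CPM in non-manipulated hens 1, 2 and 3. It was 2.26, 1.19 and 1.32 CPM in sham-manipulated hens 1, 2 and 3, and 1.68, 1.26 and 0.856 CPM in albumen-deprived hens 1, 2 and 3. The lowest non-manipulated hen thus stood well above the highest drilled hen, and the highest count of a drilled library was 39 against at least 171 in the undrilled ones. The mean was 17.1 ± 6.55 CPM (SD, n = 3) in undrilled and 1.43 ± 0.486 CPM (SD, n = 6) in drilled hens. The level was 12.0-fold lower in the drilled hens, with a log2-fold change of -3.59 (SE 0.31, 95% confidence interval -4.28 to -2.89) and an adjusted p of 0.00908 by edgeR's quasi-likelihood test. The exact two-sided permutation test of log2 CPM over the 84 ways to choose 3 of 9 hens gave p = 0.0238, the smallest it can give. Any locus whose drilled and undrilled hens do not overlap gets this value. FLVCR2 was known from earlier results of these data, so this p adds no support.

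FLVCR2 lay far below the non-manipulated hens in each drilled group. The sham-manipulated group had a log2-fold change of -3.42 (SE 0.39) and the albumen-deprived group one of -3.75 (SE 0.40), and albumen-deprived minus sham-manipulated gave -0.33 with an unadjusted P-value of 0.454. Leaving out 1 hen at a time moved the log2-fold change between -3.88 and -3.41 and kept the loosened call in 9 of 9 fits. The adjusted p did not hold as well. It was 0.0823 without non-manipulated hen 1, 0.0812 without non-manipulated hen 2, 0.0644 without sham-manipulated hen 3, 0.0785 without albumen-deprived hen 2 and 0.0530 without albumen-deprived hen 3, and it stayed under 0.05 in the other 4 fits.

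No tested locus around FLVCR2 showed a difference of like size. FLVCR2 lies on the + strand of chromosome 5 of the Galgal4 build, from 37575337 to 37606748, in a model of 12 exons and 3171 exonic bases. Of the loci within 400000 bases of it, 20 were tested. Their log2-fold changes in drilled minus undrilled hens lay between -0.37 and 0.29, and the smallest P-value was 0.103. BATF, a transcription factor of lymphocytes, ends 7689 bases before FLVCR2 and had a log2-fold change of -0.09. C14orf1 (ERG28 in current naming), a scaffold of sterol synthesis enzymes that lies 530 bases beyond it on the opposite strand, had one of -0.28. An unidentified locus without strand overlaps the FLVCR2 model, and since the reads were counted without strand, reads that fell on both were left out.

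**Figure D2:**
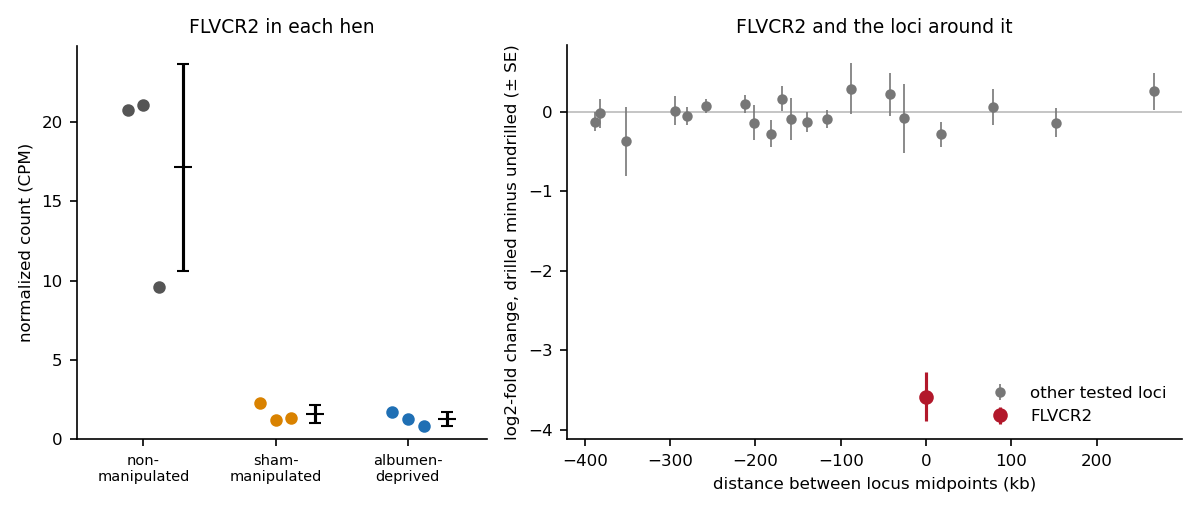
Left, FLVCR2 in CPM in each hen by group (points, with the mean and SD beside them). Right, log2-fold change of drilled minus undrilled hens (with standard error bars) for FLVCR2 and the 20 tested loci within 400000 bases, against the distance between midpoints in kb. FLVCR2 lies at -3.59 and the others between -0.37 and 0.29.

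No other gene of heme transport, synthesis and breakdown was called. FLVCR1, the paralog of FLVCR2, had 7.53, 10.0 and 13.0 CPM in non-manipulated, 15.5, 13.1 and 13.7 CPM in sham-manipulated and 11.3, 8.86 and 12.2 CPM in albumen-deprived hens, and the groups overlapped (log2-fold change 0.27, P-value 0.175). Per length, FLVCR2 stood at a mean of 5.41 CPM per kilobase of exon in undrilled hens, above FLVCR1 at 1.95, and at 0.450 in drilled hens, below FLVCR1 at 2.38. HMOX1, heme oxygenase 1, which breaks heme down, was the only other gene of this list with a P-value under 0.05. It had 205, 320 and 264 CPM in non-manipulated hens against 304 to 411 CPM in the drilled ones, which overlapped (log2-fold change 0.42, P-value 0.0317), and it was not called. Of the 16 genes tested in the list, 1 was called, against 0.17% of all loci, and the median log2-fold change was 0.09, where that of all loci was 0.01. The 1 call is FLVCR2, known beforehand, so this count is no evidence about the list. ALAS1, the first enzyme of heme synthesis, had a log2-fold change of -0.15 (P-value 0.765), and HPX, the hemopexin that binds free heme in plasma, one of 0.08 (P-value 0.825).

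GPC3 and SOCS2, which both act around growth hormone and growth factor signals, were lower in the drilled hens. GPC3 is glypican 3, a heparan sulfate proteoglycan of the cell surface that binds growth factors and morphogens and is best known from fetal liver. It had 11, 12.0 and 8.75 CPM in non-manipulated, 4.52, 4.52 and 6.60 CPM in sham-manipulated and 5.31, 6.40 and 5.60 CPM in albumen-deprived hens. The groups did not overlap, and the level was 1.93-fold lower in the drilled hens (log2-fold change -0.95, SE 0.17, P-value 0.000303, adjusted p 0.999). GPC3 lies on chromosome 4 of Galgal4 (3823561 to 3937271, - strand, 14 exons). Of the other glypicans, looked at after the values of GPC3 were seen, GPC4 is its neighbour on that chromosome and had a log2-fold change of -0.27 (P-value 0.191), and GPC1 one of -0.13 (P-value 0.678). GPC5 had -0.83, but with 2.29 to 10.6 CPM in the non-manipulated hens its P-value was 0.131.

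SOCS2 is a suppressor of cytokine signalling that growth hormone induces in mammalian liver and that damps the growth hormone receptor. Its normalized count was 18.5, 16.4 and 18.0 CPM in non-manipulated, 12.3, 6.75 and 10.2 CPM in sham-manipulated and 10.6, 7.48 and 9.48 CPM in albumen-deprived hens. Every drilled hen was below every undrilled one, and the level was 1.86-fold lower (log2-fold change -0.90, SE 0.18, P-value 0.000831, adjusted p 0.999). Its locus lies on chromosome 1 (44764153 to 44768210, + strand). The related genes CISH and SOCS3, examined after the values of SOCS2 were seen, lay the other way without passing the cut-off, with log2-fold changes of 0.21 (P-value 0.603) and 1.18 (P-value 0.0819). SOCS3 ranged from 4.62 to 29.5 CPM over the drilled hens, with the highest values in sham-manipulated hen 2 and albumen-deprived hen 1.

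No further gene of the insulin-like growth factor (IGF) axis was called. Of 16 genes tested, 2 were called (GPC3 and SOCS2), against 0.17% of all loci, and the median log2-fold change was -0.04, where that of all loci was 0.01. The list and its members were chosen with earlier results of these data known, so this count is no evidence about the IGF axis. IGFALS, the subunit that holds IGFs in the circulation, had 169, 156 and 164 CPM in non-manipulated, 125, 97.7 and 113 CPM in sham-manipulated and 156, 118 and 131 CPM in albumen-deprived hens. This gave a log2-fold change of -0.41 (P-value 0.00844), under 1.5-fold, and albumen-deprived hen 1 reached the non-manipulated range. GHR, the growth hormone receptor, had a log2-fold change of -0.02 (P-value 0.871), IGF2 of 0.01 (P-value 0.958) and IGFBP4, a binding protein, of 0.01 (P-value 0.960). The remaining members had P-values of 0.108 or more.

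Genes of cholesterol synthesis stood lower in 5 of the 6 drilled hens. Of the list of cholesterol synthesis and uptake, 18 genes were tested, and 18 of 18 had a log2-fold change below 0, against 48.8% of all loci. A P-value under 0.05 with a lower level was reached by 12 of the 18, against 1.86% of all loci. The median log2-fold change was -0.84, with -0.89 for the sham-manipulated and -0.78 for the albumen-deprived group, where that of all loci was 0.01. The genes of the list respond to shared sterol sensing in vertebrates, and they were measured in the same 9 livers, so they are not independent replicates. The list and its members were also chosen with earlier results of these data known, so these shares are a description. No member named here passed the loosened cut-off, and the smallest adjusted p of the list was 0.999.

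The steps of the pathway differed in size. SQLE, squalene epoxidase, had 107, 112 and 167 CPM in non-manipulated, 42.1, 62.5 and 37.4 CPM in sham-manipulated and 36.7, 16.5 and 123 CPM in albumen-deprived hens (log2-fold change -1.29, P-value 0.0274). Albumen-deprived hen 3 lay with the undrilled hens. NSDHL (log2-fold change -1.0, P-value 0.0112) and LSS, lanosterol synthase (-0.92, P-value 0.0154), were members whose groups did not overlap. MVD had -0.81 (P-value 0.00930), DHCR7 -0.87 (P-value 0.0106), SC4MOL -1.15 (P-value 0.0128), CYP51A1 -1.08 (P-value 0.0152) and FDFT1, squalene synthase, -1.04 (P-value 0.0336). SREBF2, the transcription factor of sterol control, had -0.62 (P-value 0.0452). HMGCS1, at 3743, 3728 and 3952 CPM the most abundant member in the non-manipulated hens, had -0.25 (P-value 0.289), and INSIG1, the sterol sensor of the endoplasmic reticulum, -0.27 (P-value 0.443). A locus that the gene models merge from FDPS and NUP210L had -0.99, and its reads cannot be split between the genes.

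Among the hens from drilled eggs the cholesterol genes varied from hen to hen. As a median over the 18 genes, sham-manipulated hens 1, 2 and 3 lay at -1.21, -0.54 and -1.13 on the log2 scale relative to the mean of the undrilled hens. Albumen-deprived hens 1, 2 and 3 lay at -0.90, -1.64 and -0.07, and the non-manipulated hens at -0.07, -0.17 and 0.22. In albumen-deprived hen 2, 18 of 18 genes were below the lowest non-manipulated hen, and in albumen-deprived hen 3 5 of 18 were. In the remaining drilled hens this number was 14 to 17. The share of all loci below the lowest non-manipulated hen is not given for each hen, so these numbers are a description. No member differed between albumen-deprived and sham-manipulated hens at a P-value under 0.05, where 7.13% of all loci did. The median stayed between -1.06 and -0.71 when 1 hen was left out, but the number of members lower with a P-value under 0.05 ranged from 3, without non-manipulated hen 3, to 15, without albumen-deprived hen 3.

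**Figure D3:**
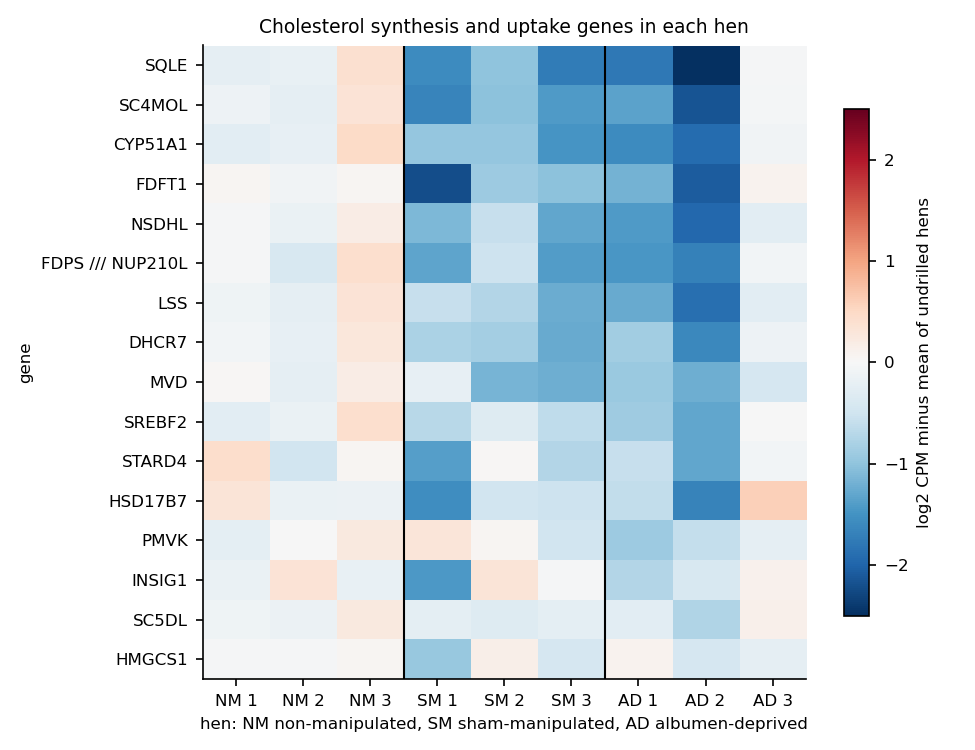
Log2 CPM of 16 of the 18 tested genes of cholesterol synthesis and uptake (rows) in each hen (columns), minus the mean of the 3 non-manipulated hens, blue where lower and red where higher. Albumen-deprived hen 2 is the lowest (median -1.64 over the 18 genes), and albumen-deprived hen 3 (median -0.07) has the colours of the non-manipulated hens.

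Other genes of lipid handling went both ways. Of 14 genes of fatty acid and triglyceride synthesis, 0 were called, against 0.17% of all loci. A P-value under 0.05 was reached by 0 of them, against 3.37% of all loci, and the median log2-fold change was 0.03. At these shares 0 of 14 says little about the list. MTTP, which loads lipid onto apolipoprotein B, had 63.0, 70.3 and 62.9 CPM in non-manipulated, 81.1, 63.9 and 77.9 CPM in sham-manipulated and 110, 104 and 103 CPM in albumen-deprived hens. The log2-fold change was 0.44 (P-value 0.00290), under 1.5-fold, and it was larger in albumen-deprived hens (0.69) than in sham-manipulated ones (0.18), with an unadjusted P-value of 0.00253 between the drilled groups. APOVLDLII, an apolipoprotein of yolk-directed lipoproteins, stood lower in all 6 drilled hens (50134 to 64880 CPM) than in the undrilled ones (65210 to 76781 CPM). Its log2-fold change of -0.30 had a P-value of 0.108. With the GC-bin full quantile normalization it was 0. That method gives a locus of the same rank in all hens the same value, so the 0 is no evidence about the difference. SOAT1, another gene of lipid handling, was named after its values were seen. It was higher in every drilled hen, with a log2-fold change of 0.48, under 1.5-fold. Its P-value by edgeR's quasi-likelihood test was 0.00176 (adjusted p 0.999). The sham-manipulated group had 0.44 and the albumen-deprived group 0.52. CYP7A1, the rate-limiting enzyme of bile acid synthesis, did not move alike, since its log2-fold change was -1.75 for the sham-manipulated and 0.10 for the albumen-deprived group.

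GNPAT, the enzyme of peroxisomes that starts the synthesis of ether lipids (plasmalogens), was lower in the drilled hens. It had 42.6, 53.3 and 48.3 CPM in non-manipulated, 32.0, 25.7 and 34.3 CPM in sham-manipulated and 27.1, 21.6 and 39.6 CPM in albumen-deprived hens. The groups did not overlap, although albumen-deprived hen 3 came close to the non-manipulated hens, and the level was 1.60-fold lower (log2-fold change -0.68, SE 0.18, P-value 0.00442, adjusted p 0.999). The call was kept in 1 of 9 fits that left out a hen. GNPAT lies on chromosome 3 (40017546 to 40038387, + strand) and overlaps C1orf131 on the opposite strand. C1orf131 was lower as well (log2-fold change -0.54, P-value 0.00198, under 1.5-fold). Its model ends at 40017566, just past the start of GNPAT. Reads were counted without strand, and those that fell on both genes were left out of both counts. AGPS, which acts next in the same pathway and was chosen after GNPAT was seen, had a log2-fold change of -0.07 (P-value 0.461).

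ENSGALG00000026540, a gene of 5 exons on an unplaced contig with no symbol in the files, had the second smallest P-value. Its normalized count was 7.38, 5.75 and 8.86 CPM in non-manipulated, 3.54, 3.28 and 2.77 CPM in sham-manipulated and 2.14, 1.71 and 2.96 CPM in albumen-deprived hens. Every drilled hen was below every undrilled hen, and the level was 2.72-fold lower (log2-fold change -1.44, SE 0.21, P-value 5.88e-05, adjusted p 0.363). It kept its call in 9 of 9 fits that left out a hen, as did FLVCR2, GPC3, SOCS2 and the unidentified locus XLOC_020834.

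The genes that were higher in the drilled hens were fewer and less stable. TLR7, an endosomal receptor of immune cells for single-stranded RNA, had 1.62, 1.07 and 1.01 CPM in non-manipulated, 3.94, 2.53 and 3.70 CPM in sham-manipulated and 1.88, 2.17 and 1.84 CPM in albumen-deprived hens. No drilled hen reached down into the non-manipulated range, and the level was 2.1-fold higher (log2-fold change 1.07, SE 0.26, P-value 0.00236, adjusted p 0.999). Before TMM scaling non-manipulated hen 2 lay under 1 CPM, so TLR7 passed the filter on low counts only with the drilled hens. Its lack of overlap and its P-value are therefore a description. The log2-fold change was 1.46 for the sham-manipulated and 0.68 for the albumen-deprived group, a difference of -0.78 (unadjusted P-value 0.0187, adjusted p 0.631). TLR7 was the only one of the 17 loci for which this difference had a P-value under 0.05, where 7.13% of all loci had one. The call was kept in 4 of 9 fits that left out a hen. The other toll-like receptors, looked at after TLR7 was seen, had P-values of 0.196 or more. TLR7 lies on chromosome 1 (122856250 to 122862991, - strand).

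Markers of macrophages, which express TLR7 in mammals, were at a lower sum in 1 non-manipulated hen and not in the others. Their sum over 14 tested genes was 424 CPM in non-manipulated hen 1 and 1166 to 1258 CPM in all 8 other hens, and 13 of 14 markers were lowest in that hen, among them the scavenger receptor MARCO (61.9 CPM against 161 to 293 CPM) and the complement gene C1QA (28.6 against 79.5 to 103 CPM). The median log2-fold change of the list was 0.34 in drilled minus undrilled hens, and it was 0.01 without non-manipulated hen 1. In the full comparison 13 of 14 genes were higher, against 51.2% of all loci, and 0 were called, against 0.17% of all loci. TLR7 was higher in that hen (1.62 CPM) than in the other non-manipulated ones, and without it the log2-fold change of TLR7 was 1.31 with a P-value of 0.00154. In RNA of whole liver, fewer cells of a type and less RNA per cell cannot be told apart.

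MAOB, HOXB5 and LURAP1 were the other higher genes with a name. MAOB, a mitochondrial enzyme that oxidizes amines, had 16.2, 16.4 and 23.1 CPM in non-manipulated, 36.5, 42.9 and 24.6 CPM in sham-manipulated and 25.3, 37.5 and 26.7 CPM in albumen-deprived hens (1.73-fold higher, log2-fold change 0.79, P-value 0.00484). The groups came close, with 23.1 CPM in non-manipulated hen 3 and 24.6 CPM in sham-manipulated hen 3, and the call was kept in 2 of 9 fits that left out a hen. MAOA, its neighbour in function, had a log2-fold change of 0.25 (P-value 0.159). MAOB was also the locus just inside the cut-off, while ATP1B1, a sodium pump subunit (0.62, P-value 0.00526), and ABCC9, a subunit of potassium channels (0.81, P-value 0.00538), lay just outside it.

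HOXB5, a homeobox transcription factor of body patterning, was near the detection limit. It had 0.443, 0.401 and 0.729 CPM in non-manipulated, 1.33, 1.34 and 0.924 CPM in sham-manipulated and 1.04, 1.66 and 1.51 CPM in albumen-deprived hens, from 6 to 29 counts per library. The groups did not overlap (2.43-fold higher, log2-fold change 1.28, P-value 0.00368), and the call was kept in 3 of 9 fits. All undrilled hens lay under 1 CPM, so HOXB5 was tested only because of its level in the drilled hens. Its lack of overlap and its P-value are therefore a description. Of its cluster neighbours, chosen after its values were seen, HOXB4 had a log2-fold change of 0.76 (P-value 0.0383), HOXB3 one of -0.30 and HOXB2 one of -0.08. LURAP1, an adaptor protein, had 3.10, 2.81 and 3.37 CPM in non-manipulated, 5.33, 5.02 and 5.87 CPM in sham-manipulated and 4.98, 3.54 and 5.93 CPM in albumen-deprived hens (1.65-fold higher, log2-fold change 0.72, P-value 0.00463). Albumen-deprived hen 2 lay just above the non-manipulated hens, and the call was kept in 1 of 9 fits.

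**Figure D4:**
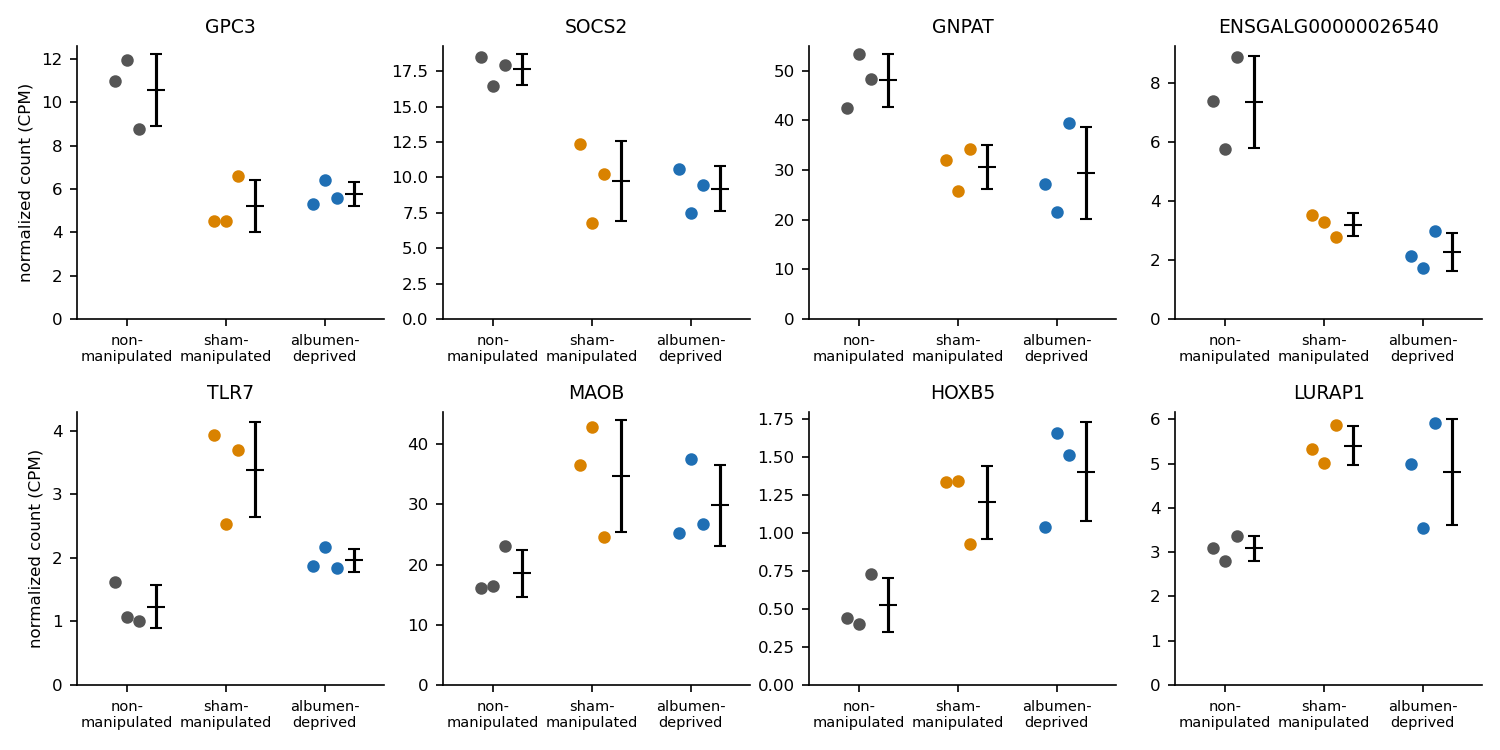
Normalized counts in CPM of 8 of the identified genes that moved alike, in each hen by group (points, with the mean and SD beside them; axes start at 0). In GNPAT albumen-deprived hen 3 is the highest drilled hen, and in TLR7 the albumen-deprived hens lie between the other groups.

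The remaining 7 of the 17 loci match no previously identified gene. Unidentified loci are 16.1% of those tested. Locus models with 1 exon made up 7 of the 17, against 11.1% of the tested loci, and 4 of the 17 lie on unplaced contigs, against 9.57%. XLOC_020834, on the contig JH376396.1 (31062 to 31379, 1 exon), had 25.0, 23.2 and 12.3 CPM in non-manipulated, 9.85, 7.40 and 8.51 CPM in sham-manipulated and 10.2, 10.7 and 11.3 CPM in albumen-deprived hens (log2-fold change -1.07, P-value 0.000488). Its neighbour XLOC_020835 on the same contig was called too (-2.0, P-value 0.00108), but its groups met, with 1.80 CPM in non-manipulated hen 3 and 1.81 CPM in albumen-deprived hen 1. CD69, an activation marker of lymphocytes on the same contig, had a log2-fold change of 0.24 (P-value 0.269).

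XLOC_014460, on chromosome 4 (51199741 to 51200474), was the only unidentified locus that was higher. It had 0.886, 0.735 and 1.07 CPM in non-manipulated and 1.71 to 2.14 CPM in drilled hens (log2-fold change 1.01, P-value 0.00192). Only the drilled hens took it past the filter on low counts, so these values are a description. XLOC_018529 was lower (log2-fold change -0.98, P-value 0.00193). XLOC_018621 and XLOC_021927, the latter on chromosome Z, had the largest differences of the 17 after FLVCR2, with log2-fold changes of -2.30 and -1.82, but at low levels. XLOC_018621 had 3.98 to 4.95 CPM in undrilled and 0.198 to 2.04 CPM in drilled hens, the lowest of these from 3 counts. XLOC_021927 had 1.35 to 3.54 CPM in undrilled and 0.259 to 0.988 CPM in drilled hens. XLOC_018621 and XLOC_021927 were tested only because of their level in the undrilled hens, so their differences are a description. XLOC_002441 (-0.87) and XLOC_017689 (-0.91) made up the rest. XLOC_018621, XLOC_021927 and XLOC_002441 were named after their values were seen.

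Loci that were called in drilled against undrilled hens without moving alike were few. Beside XLOC_020835 these were RWDD3, XLOC_012101 and a 5-exon locus labelled SNORA16. RWDD3, which promotes sumoylation, had 21.5, 29.1 and 23.3 CPM in non-manipulated, 16.4, 11.4 and 12.7 CPM in sham-manipulated and 23.3, 18.5 and 16.9 CPM in albumen-deprived hens. Its albumen-deprived hens overlapped the non-manipulated ones (log2-fold change -0.33, against -0.87 in sham-manipulated hens), and the drilled groups differed by 0.54 (unadjusted P-value 0.0184). XLOC_012101 had -1.48 for the sham-manipulated and -0.47 for the albumen-deprived group, a difference of 1.01 (unadjusted P-value 0.00750). The SNORA16 locus had -0.77 and -0.56. Its exons hold several small nucleolar RNA genes, so that its value cannot be ascribed to one of them.

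Across the 29 gene lists, the cholesterol list had the median farthest from 0. In 23 other lists the median log2-fold change of drilled minus undrilled hens lay between -0.17 and 0.19. Outside the IGF list 0 to 1 members of a list were called. Of all loci 0.17% were called, so 0 calls in a list of this size say little. Markers of bile ducts were lower in 6 of 7 genes (median -0.38, none called), where 48.8% of all loci were lower. The list holds 12 genes, of which only these 7 were tested, so 6 of 7 says little. The difference was smaller in albumen-deprived hen 3 (-0.06) than in the other drilled hens (-0.78 to -0.18). Markers of T and NK cells had a median of -0.35, and their members went both ways. The T cell receptor gene TRA@ was higher in every drilled hen, at 10.6 to 21.0 CPM against 5.67 to 10.0 CPM (log2-fold change 0.88, P-value 0.00783), while IL2RA, the alpha chain of the interleukin 2 receptor, had -0.97 (P-value 0.0303). Neither was called. Markers of erythrocytes, whose chicken form keeps its nucleus, were 4 of 4 higher at low levels (median 0.45, sums of 7.82 to 10.6 CPM in undrilled and 10.1 to 14.9 CPM in drilled hens). Of all loci 51.2% were higher. The list holds 12 genes, of which only these 4 were tested, so 4 of 4 says little.

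Proliferation genes and heterophil granule genes stood high in 1 or 2 sham-manipulated hens. The sum of 23 proliferation genes was 287 CPM in sham-manipulated hen 1 and 72.9 to 125 CPM in the other 8 hens, and 23 of 23 were highest in that hen. The median log2-fold change of this list was 0.47 over the drilled hens and 0.02 without sham-manipulated hen 1. Heterophil granule genes summed to 117 CPM in sham-manipulated hen 1 and 96.6 CPM in sham-manipulated hen 2, against 38.3 to 60.3 CPM in all others. Their median log2-fold change was 0.91 for the sham-manipulated and -0.28 for the albumen-deprived group. No called locus belongs to either list, where 0.17% of all loci were called.

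Genes of endoplasmic reticulum stress and of the amino acid response did not pass the cut-off in the drilled hens. Of 25 and 17 genes tested, 21 and 16 had a log2-fold change below 0, against 48.8% of all loci, with medians of -0.14 and -0.17. In either list 0 were called, against 0.17% of all loci. Counts and medians of the endoplasmic reticulum stress genes differed between the drilled groups, which was not tested for the list. Of the 25 genes, 3 differed between the drilled groups at an unadjusted P-value under 0.05 of edgeR's quasi-likelihood test, against 7.13% of all loci. Against the same non-manipulated hens, 14 of 25 were higher in the sham-manipulated group (median 0.07), and 25 of 25 were lower in the albumen-deprived group (median -0.29). The medians of all loci in these comparisons were 0.012 and 0.0071. For the amino acid response, 10 of 17 were lower in the sham-manipulated (median -0.08) and 16 of 17 in the albumen-deprived group (median -0.24). Both pooled medians rested on non-manipulated hen 2, without which they were 0.07 and 0.01. The counts and medians of each drilled group include the same hen, and their values without it are not given here. ASNS, asparagine synthetase, had -0.77 (P-value 0.0709), and its log2-fold change was 0.01 without non-manipulated hen 2. The 33 tested genes of oxidative phosphorylation lay between -0.15 and 0.15, with a median of 0.05. In the thyroid hormone list THRB, the beta receptor, was lower in every drilled hen (20.5 to 24.7 CPM, against 26.7 to 40.0 CPM; log2-fold change -0.44, P-value 0.0116), under 1.5-fold. ULK1, a kinase that starts autophagy, did not move alike, with -0.14 for the sham-manipulated and 0.95 for the albumen-deprived group.

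**Figure D5:**
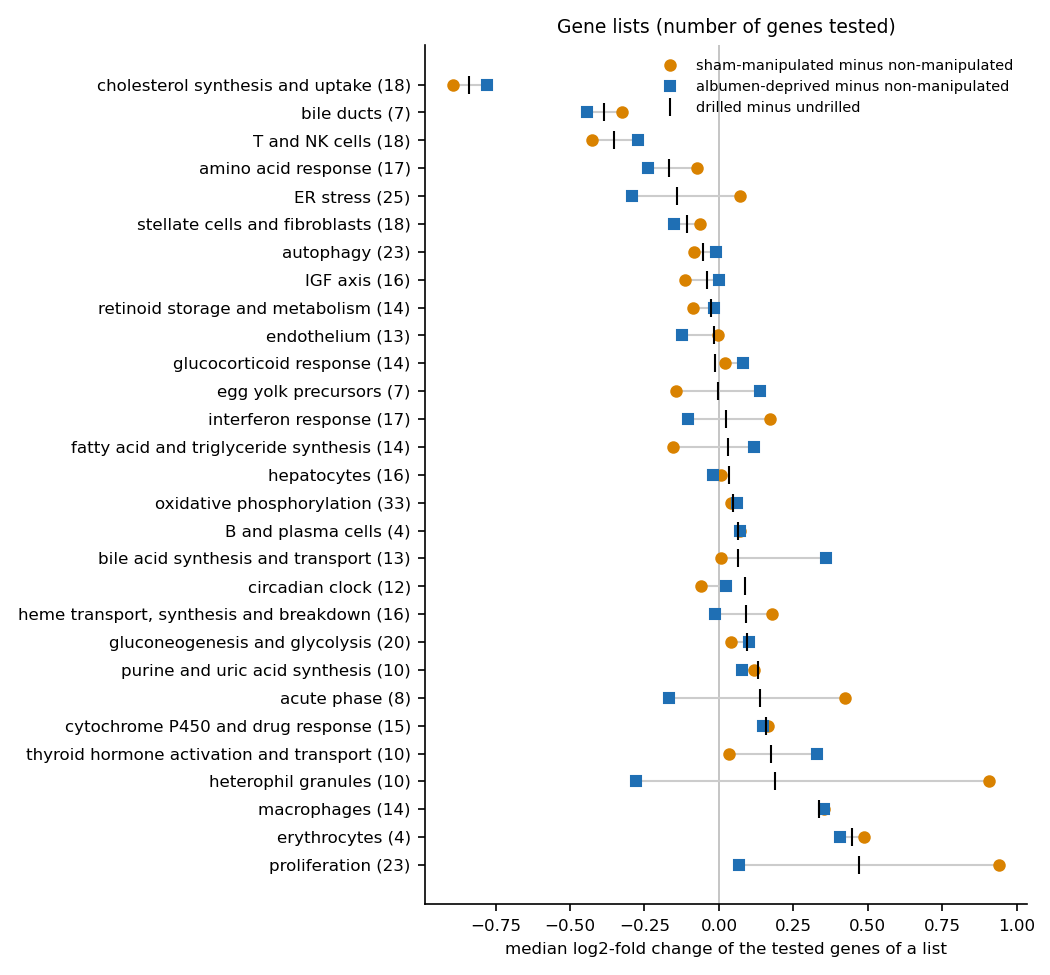
Median log2-fold change of the tested genes of each of 29 lists (rows, with the number of genes tested) in the sham-manipulated (circles) and albumen-deprived hens (squares) against the non-manipulated hens and in drilled against undrilled hens (vertical ticks). Cholesterol synthesis and uptake lies at -0.89 and -0.78, while heterophil granules lie at 0.91 and -0.28.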

How the data were processed

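Liver RNA of 9 hens was analysed, 3 per group, with groups taken from the sample labels. The authors mapped single-end, unstranded reads to Galgal4 with TopHat2 2.0.8b, dropped non-primary and poorly mapped reads, merged Cufflinks 2.1.1 models with the annotation and deposited raw counts per locus from HTSeq 0.5.4p3, together with the GC content in percent and the length of each locus. Reads on several loci were left out, which lowers genes that overlap. The authors' FPKM values were used only to know which 13599 loci they kept, and their deposited table of comparisons (fold changes, P-values and calls) was not used.

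The tested loci had over 1 CPM in 3 or more libraries. They were scaled by TMM factors, and edgeR 4.0.16 gave the tests (R 4.3.3, quasi-likelihood F-test, a coefficient per group, common dispersion 0.0630, 3.32 prior and 6 residual degrees of freedom). The contrast was the mean of both drilled groups minus the non-manipulated group. Standard errors are the log2-fold change over the square root of F. Overlap was judged on log2 CPM with a prior count of 2.  Named were up to 10 identified loci per direction that moved alike, up to 3 unidentified ones by P-value, FLVCR2, FLVCR1, ULK1, the 3 members of each list with the smallest P-values, and the 5 calls with the smallest P-values between the drilled groups. Others were named after their values were seen. Gene lists and the members were chosen with earlier results of these data known. Alternatives were DESeq2 1.42.0 size factors and Wald test, the GC-bin full quantile normalization (10 bins), no filter, the authors' loci, the likelihood ratio test, 1 coefficient for drilled hens, a replicate block, a term for library codes, the strict cut-off and each hen left out. Scripts were tested on simulated data. Some named-by-rule items are not reported here, although counts and medians over loci and lists include them.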

Additional observations from a re-analysis of the deposited data

Results flagged for a closer look

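In XLOC_014460, which was higher in the drilled hens, sham-manipulated hen 1 stood apart from the other 5 drilled hens with 2.14 CPM against 1.71 to 1.79 CPM. These values rest on few reads, 37 counts in that hen and 26 to 36 in the other 5. The gap to the nearest hen was 0.828 of the range of the 6 hens, where 0.625 is the 95% critical value of Dixon's test. Chance takes about 1 in 20 groups past that critical value.

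For 3 of the 21 called loci the drilled groups differed from each other, as albumen-deprived minus sham-manipulated hens. The unadjusted P-value of edgeR's quasi-likelihood test was under 0.05. Over all loci 879 (7.13%) had such a P-value, so 3 of 21 says little. The difference in log2-fold change was -0.78 for TLR7 (P-value 0.0187), 1.01 for XLOC_012101 (P-value 0.00750) and 0.54 for RWDD3 (P-value 0.0184), so that the albumen-deprived hens lay nearer to the non-manipulated ones in all 3. None had an adjusted p under 0.05.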

How the results depend on the processing

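FLVCR2, ENSGALG00000026540, GPC3, SOCS2 and XLOC_020834 kept their loosened call in all 9 fits that left out a hen and under all 9 other settings, and the other 12 of the 17 loci that moved alike lost it in at least 1 of the former. With 1 hen left out, 19 to 42 loci were called, with 42 without albumen-deprived hen 3 and 39 without non-manipulated hen 2, and 14 to 29 moved alike, with 29 without either of these. The same fits gave 0 to 2 loci with an adjusted p under 0.05, 30 to 75 calls in the sham-manipulated and 22 to 55 in the albumen-deprived group, 0 to 5 loci among those alike that differed between the drilled groups, and an exact permutation p of 0.0357 to 0.0714 for FLVCR2, the latter being the smallest possible with 2 undrilled hens. Without a filter on low counts 40 loci were called and 2 of those alike differed between the drilled groups, as did 2 with the GC-bin full quantile normalization. The likelihood ratio test called 63 loci, of which 28 moved alike, with 6 adjusted, 96 in the sham-manipulated and 67 in the albumen-deprived group. The Wald test of DESeq2 called 58, with 8 adjusted, 99 and 64. The strict cut-off gave 3 called and 3 alike, 8 and 6 in the separate groups, and 0 that differed between the drilled groups. With non-manipulated hen 1 and sham-manipulated hen 1 both left out, a choice made after seeing the data, 22 loci were called and 16 moved alike, 0 had an adjusted p under 0.05 (FLVCR2 0.126), and 4 differed between the drilled groups. The causes of these shifts were not tested.

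The replicate numbers mark no shared batch in the labels, and 2 of 9 same-numbered pairs had a correlation of deviations over 0.1 (-0.16 to 0.24), so the numbers were not taken as pairs. With a replicate block 30 loci were called, 14 of them among the 21, and 13 moved alike.

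Of the 99 genes named by rule, 12 changed direction or reached 0 in some setting, none of them called, in 25 of 1980 values. BLNK had -0.0053 with the size factors of DESeq2, -0.031 with the GC-bin full quantile normalization, -0.0018 without a filter and -0.0063 in the Wald test. APOVLDLII did not change direction but had 0 in the GC-bin normalization, and it ran from -0.36 to -0.25 with 1 hen left out. With 1 hen left out the log2-fold change ran from -1.15 to 0.078 in ALDH18A1, -1.14 to 0.0069 in ASNS, -0.11 to 0.086 in BLNK, -0.036 to 0.31 in BTK, -0.0024 to 0.28 in FABP1, -0.87 to 0.058 in IARS, -0.22 to 0.77 in IGJ, -1.24 to 0.085 in PER3, -1.56 to 0.038 in RBP7 and -0.41 to 0.044 in STAB2. With both hens left out PER3 had 0.17, ALDOC -0.035 and BTK -0.20. With 13.7 to 21.7 counts per CPM before TMM scaling, differences at loci near 1 CPM, such as HOXB5, rest on few counts.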
